A study of Mus musculus with 7 samples.

Results

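The Hox cluster genes were read from RNA sequencing counts of mouse hematopoietic stem cells (HSCs). The members were chosen by symbol alone: every row named Hox, then a, b, c or d, then a number, with nothing after it. This rule took 39 of the 23284 genes in the count table, 11 in the Hoxa cluster, 10 in Hoxb, 9 in Hoxc and 9 in Hoxd. The cells came from bone marrow of C57BL/6 mice and were sorted by the brightness of GFP, a fluorescent protein that reports Hdc. Hdc encodes histidine decarboxylase, the enzyme that makes histamine. The bright fraction is called Hdc-GFPhi (3 libraries) and the dim fraction Hdc-GFPlo (4 libraries), and each library came from 500 sorted cells. Hdc-GFPlo replicate 4 is the only library whose sorted fraction is labelled Hdc-GFP-. The labels used here give no age or sex, no surface gate for the HSC sort and no account of how the reporter was built. Nothing in the labels says that replicates were separate animals, so p-values here speak of the variation among these libraries, part or all of which may be technical.

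Hox genes encode transcription factors that bind DNA through a homeodomain, a conserved fold whose last helix reads the DNA sequence. The genes stand side by side in clusters, and the number in a name gives the paralogue group, which runs from the low-numbered end of a cluster, active toward the head of the embryo, to the high-numbered end, active toward the tail. In blood, genes of the Hoxa and Hoxb clusters are the ones known to be active in stem and early progenitor cells, where their proteins bind DNA together with the cofactors Meis and Pbx, and their expression declines as cells mature. The histone methyltransferase MLL, encoded by Kmt2a, maintains their transcription.

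All 39 genes carry a stretch of the homeobox that codes for the core of the recognition helix. It is printed here because it shows how alike the measured members are in this conserved stretch, which is a small part of each transcript. The 24 bases come from the principal GENCODE M21 transcript of each gene on its coding strand, 5′ to 3′, with capitals at each base that differs from Hoxa9, for the 12 members measured well enough to be tested.
Hoxa2: tggttTcagaaccgGagAatgaaG
Hoxa3: tggttccagaaccgcCgCatgaaG
Hoxa4: tggttTcagaaccgGagAatgaaG
Hoxa5: tggttccaAaacAgGaggatgaaG
Hoxa6: tggttccagaaTcgGCgCatgaaG
Hoxa7: tggttccagaaTcgGCgCatgaaG
Hoxa9: tggttccagaaccgcaggatgaaa
Hoxa10: tggttTcagaaTcgcaggatgaaa
Hoxb2: tggttccagaaccgACgCatgaaa
Hoxb3: tggttccagaaccgTCgCatgaaG
Hoxb4: tggttccagaaTcgGCgCatgaaG
Hoxb5: tggttccagaaccgTCgCatgaaG

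Hoxa9 and Hoxa10 differed at 2 of these 24 bases, the fewest differences from Hoxa9 among the 12, and Hoxa6, Hoxa7 and Hoxb4 differed at 5. Over the whole homeobox of 180 bases, the 66 pairs of tested members were 56.1% to 93.9% identical. Hoxa3 and Hoxb3 were the most alike, and Hoxa6 and Hoxa7, at 88.9%, were next. The longest run of identical bases between the principal transcripts of any pair was 52, between Hoxa6 and Hoxb4. Reads that fall within such a run cannot be told apart between these genes.

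The 250 bases before the start of 3 members are printed because these genes mark the extremes of the comparison below: Hoxa2 had the largest fold difference, and Hoxa9 and Hoxa10 were the most abundant members with fold differences of opposite sign. The sequences are from RefSeq on the build GRCm38.p6, 5′ to 3′ on the strand of the gene, which for all of them is the minus strand. Capitals mark matches on either strand to TGATNNAT (a joint Pbx and Hox motif), TGACAG (a Meis motif), TATAAA (the TATA box) or GGGCGG (the GC box), and matches that overlap share their capitals.
Hoxa2, chr6:52164832-52165081: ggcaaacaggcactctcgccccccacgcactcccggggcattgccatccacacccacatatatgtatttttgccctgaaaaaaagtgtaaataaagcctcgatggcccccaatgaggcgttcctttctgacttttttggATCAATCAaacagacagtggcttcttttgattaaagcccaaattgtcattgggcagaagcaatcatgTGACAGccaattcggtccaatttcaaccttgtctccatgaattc
Hoxa9, chr6:52227371-52227620: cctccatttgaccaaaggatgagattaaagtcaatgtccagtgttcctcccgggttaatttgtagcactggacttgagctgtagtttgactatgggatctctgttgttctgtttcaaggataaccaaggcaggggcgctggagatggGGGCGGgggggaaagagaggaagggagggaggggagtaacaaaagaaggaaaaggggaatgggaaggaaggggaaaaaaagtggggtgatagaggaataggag
Hoxa10, chr6:52240855-52241104: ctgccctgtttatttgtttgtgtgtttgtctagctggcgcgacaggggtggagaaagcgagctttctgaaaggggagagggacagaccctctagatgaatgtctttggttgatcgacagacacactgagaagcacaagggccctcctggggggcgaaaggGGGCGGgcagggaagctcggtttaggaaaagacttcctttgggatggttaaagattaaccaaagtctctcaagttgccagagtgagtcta

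The Hoxa2 window held 1 TGATNNAT match and 1 TGACAG match. The Hoxa9 window and the upstream Hoxa10 window each held 1 GGGCGG match. A second RefSeq start of Hoxa10 had 1 TATAAA match and no other. The table held windows for 22 members, 8 of them among those tested. Over the 9 windows of these 8 genes, TGATNNAT was found in 1, TGACAG in 2, TATAAA in 1 and GGGCGG in 3, where 7.68%, 15.9%, 12.4% and 32.7% of all 32851 promoter windows of the same length held them.

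The clusters themselves also hold microRNA genes. Their mature sequences are shown with the seed, bases 2 to 8, in capitals, because the row of miR-196b was the only one of them with counts.
miR-196b-5p: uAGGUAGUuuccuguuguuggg
miR-196a-5p: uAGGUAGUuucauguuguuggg
miR-10a-5p: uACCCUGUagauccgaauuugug
miR-10b-5p: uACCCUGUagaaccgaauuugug

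The pair miR-196b and miR-196a shares the seed AGGUAGU, and miR-10a and miR-10b share ACCCUGU. The row Mir196b, from the stretch between Hoxa9 and Hoxa10, had 17, 25 and 15 counts in the Hdc-GFPhi libraries against 17, 17, 10 and 10 counts in the Hdc-GFPlo libraries (log2 fold change 0.33, SE 0.86, edgeR adjusted p = 0.910). The rows of both miR-196a genes and of Mir10a and Mir10b had no count in any library. These libraries were made from amplified cDNA of longer RNAs, so the row counts fragments of longer transcripts and not the mature microRNA.

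Total counts were 19606124 to 23688672 per library, and the 3 counts that a count of 0 still allows corresponded to 0.125 to 0.160 CPM (counts scaled to a common library size, here after TMM normalization between libraries). Such limits cover counting error only, because amplified reads are not independent molecules. The 10 markers of HSCs listed for the check, among them Procr, Slamf1, Mecom and Hlf, were all counted, with a summed level of 2774 to 3128 CPM in Hdc-GFPhi and 3289 to 3541 CPM in Hdc-GFPlo. Markers of other cell types were present too. The 10 lymphocyte markers, 1 of them at 0 throughout, summed to 88.0 to 122 CPM in Hdc-GFPhi and 66.7 to 96.9 CPM in Hdc-GFPlo. Their highest sum was in Hdc-GFPhi replicate 3. Il2rb, Ncr1 and Gzma of that list, picked after their values were seen, had 207, 138 and 69 counts in that library and at most 1 elsewhere. All 4 tested lymphocyte markers had higher values in Hdc-GFPhi, with 0 at an unadjusted edgeR p under 0.05. Of 12 neutrophil and monocyte markers 11 had a row, none of them at 0 throughout, and these summed to 5737 to 8011 CPM in Hdc-GFPhi and 2800 to 6830 CPM in Hdc-GFPlo. The 8 markers of granulocyte and monocyte progenitors, again none at 0 throughout, summed to 532 to 2747 CPM and 217 to 1558 CPM, with the highest value in Hdc-GFPhi replicate 1 and the lowest in Hdc-GFPlo replicate 4. Of 8 markers of mast cells, basophils and eosinophils the mast cell gene Cma1 was at 0 throughout, and the list summed to 757 CPM in Hdc-GFPhi replicate 1 against 132 to 182 CPM elsewhere. Most of the sum in that library came from the eosinophil granule genes Prg2 and Epx, picked after their values were seen. Prg2 was at 520 CPM there and at most 8.26 CPM elsewhere, and Epx at 83.9 CPM and at most 5.18 CPM. Cpa3, a mast cell and basophil gene, was at 10.7 CPM in that library and at 6.91 to 20.4 CPM elsewhere. In the other libraries most of the sum came from Gata1 of the same list, at 110 to 166 CPM, also picked after its values were seen. Hdc, for which the reporter is named, averaged 30.1 ± 10.002 CPM (SD, n = 3) in the bright fraction and 14.7 ± 7.27 CPM (SD, n = 4) in the dim one. Its log2 fold change was 1.03 (SE 0.45, edgeR adjusted p = 0.397), and its lowest value, 4.44 CPM, was in Hdc-GFPlo replicate 4.

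Transcripts of the Hoxa cluster dominated, with Hoxb well below and Hoxc and Hoxd near the detection limit. Of the 39 genes, 18 had no count in any library, 9 had some counts but too few to be tested, and 12 were tested, 8 from Hoxa and 4 from Hoxb. Each of these 12 reached 10 counts in at least 2 libraries of both fractions, so none passed the filter on low counts through a single fraction. The Hoxa cluster took 82.8% to 93.2% of all Hox counts of a library and Hoxb 6.58% to 15.8%. Within Hoxa the counted genes ran without a gap from Hoxa2 to Hoxa10, while Hoxa11 and Hoxa13 beyond Hoxa10 had no count in any library. Within Hoxb the tested genes were the run from Hoxb2 to Hoxb5. Hoxb1, Hoxb8 and Hoxb13 had no count.

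**Figure D1:**
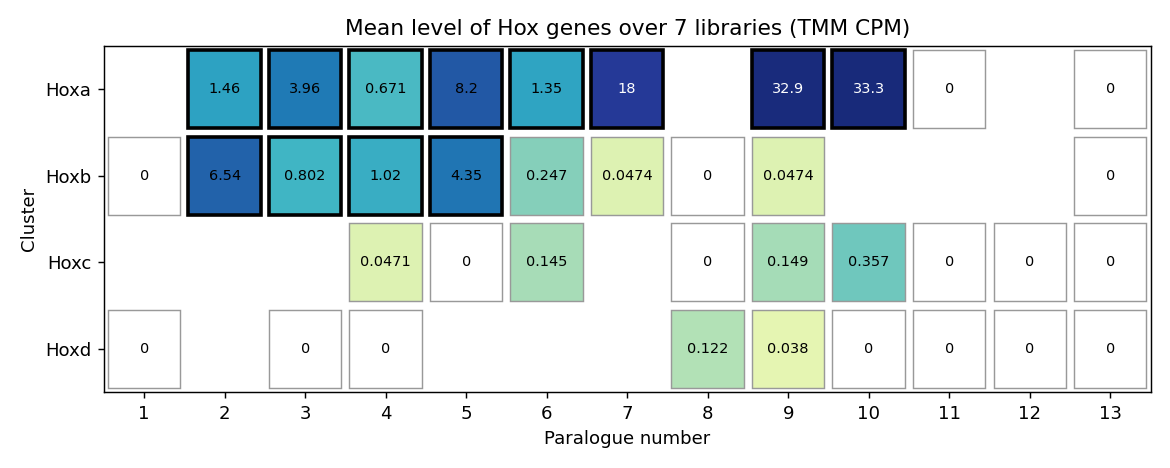
Mean level of the Hox genes over the 7 libraries, in TMM CPM, by cluster (vertical axis) and paralogue number (horizontal axis). Darker fill stands for a higher level on a log scale, a white box with 0 for no count in any library, a thick border for a tested gene and an empty place for a number that the mouse cluster does not have or that is not reported here. The filled boxes of Hoxa run from 2 to 10 and the thick borders of Hoxb from 2 to 5.

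Compared per length of transcript, the levels of the tested members fell into an order led by the 3 central and posterior Hoxa genes. Mean levels per kilobase were 13.002 CPM for Hoxa10, 10.2 CPM for Hoxa9 and 8.94 CPM for Hoxa7, then 4.37 CPM for Hoxa5 and 4.02 CPM for Hoxb2. Hoxb5 followed at 2.30 CPM per kilobase, Hoxa6 at 1.55, Hoxa3 at 1.53 and Hoxa2 at 0.823. The lowest were Hoxa4 at 0.421, Hoxb4 at 0.398 and Hoxb3 at 0.251 CPM per kilobase. Among neighbours in this order, the ranges over the 7 libraries overlapped for every pair except Hoxa7 and Hoxa5, where the lowest Hoxa7 value (6.76 CPM per kilobase) was above the highest Hoxa5 value (5.99). Hoxa9 nevertheless exceeded Hoxa7 within each of the 7 libraries, whereas Hoxa10 exceeded Hoxa9 in 5 of them, the exceptions being Hdc-GFPhi replicates 1 and 2. Lengths were those of principal transcripts in GENCODE M21, so a gene read from another isoform would take another place.

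No Hox gene passed the test between the fractions. The design asks which genes differ between Hdc-GFPhi and Hdc-GFPlo, and edgeR's quasi-likelihood test, adjusted over all 12917 genes tested, called 0 of the 12 Hox genes at 0.05, with adjusted p from 0.423 for Hoxa7 to 0.932 for Hoxa6. It called 0% of all genes tested. At an unadjusted edgeR p under 0.05 there were also 0 Hox genes, where 12.2% of all genes tested lay (4.92% higher and 7.31% lower in Hdc-GFPhi). DESeq2 called 0 Hox genes, against 3.57% of the 9646 genes to which it gave an adjusted p (0.715% higher and 2.85% lower), and only 3 Hox genes (Hoxa7, Hoxa9 and Hoxa10) were among those. Limma with quality weights called 0 of 12 and 0% of all genes. In such bulk samples fewer cells of a type and less RNA per cell cannot be told apart.

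By value alone, 10 of the 12 tested Hox genes were higher in Hdc-GFPhi, where 51.6% of all genes tested were. Their median log2 fold change was 0.52, beside 0.01 over all genes tested. The median was 0.43 over the 8 tested Hoxa genes and 0.68 over the 4 tested Hoxb genes. By position, it was 0.84 for the 4 tested members of paralogue groups 1 to 3, 0.48 for the 6 of groups 4 to 8 and 0.06 for the 2 of groups 9 to 13. No test was made over the list.

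**Figure D2:**
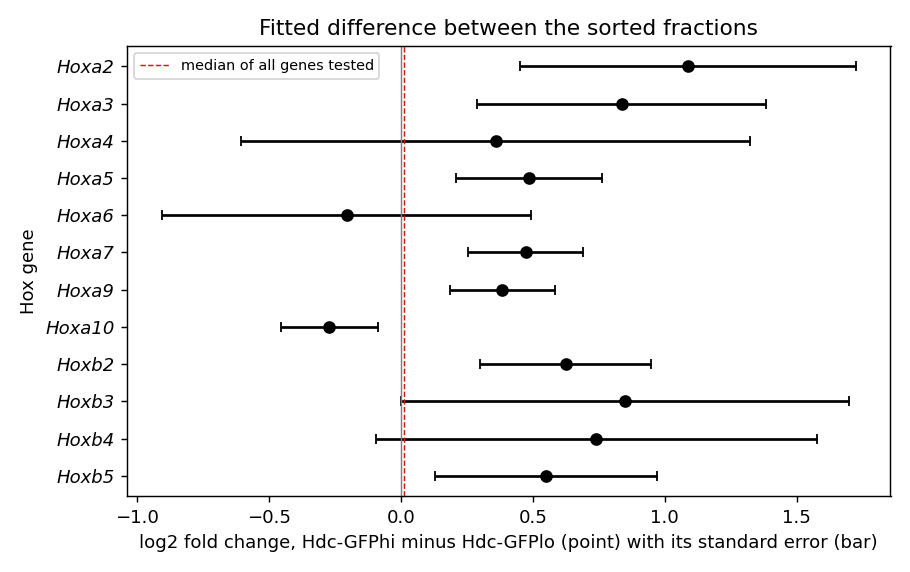
Fitted log2 fold change of Hdc-GFPhi over Hdc-GFPlo for the 12 tested Hox genes (points) with the standard error of the fit (bars), listed by cluster and paralogue number on the vertical axis. The points of all but Hoxa6 and Hoxa10 lie to the right of 0 and of the dashed line, the median of all genes tested, and no gene passed the test.

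The abundant Hoxa genes of the middle and far end of the cluster came first. Hoxa9, a factor that sustains stem and progenitor cells and drives leukemia when overexpressed, was at 43.4, 42.7 and 27.8 CPM in Hdc-GFPhi replicates 1 to 3 and at 33.3, 23.96, 32.1 and 26.9 CPM in Hdc-GFPlo replicates 1 to 4. Replicates 1 and 2 of Hdc-GFPhi were above every other library, and replicate 3 lay inside the Hdc-GFPlo range. Group levels were 38.0 ± 8.79 CPM (SD, n = 3) and 29.1 ± 4.41 CPM (SD, n = 4), and the log2 fold change was 0.38 (SE 0.20, edgeR adjusted p = 0.466; exact two-sided permutation p = 0.171).

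Hoxa7, a neighbour of Hoxa9 that is also active in early blood progenitors, followed the same libraries, at 26.3, 22.7 and 15.1 CPM in Hdc-GFPhi and 16.3, 13.6, 16.5 and 15.2 CPM in Hdc-GFPlo. Here too replicate 3 of Hdc-GFPhi lay inside the Hdc-GFPlo range, which was narrow. Its log2 fold change was 0.47 (SE 0.22, edgeR adjusted p = 0.423; exact two-sided permutation p = 0.143). Without Hdc-GFPhi replicate 3 the log2 fold changes were 0.66 for Hoxa7 and 0.56 for Hoxa9, and without Hdc-GFPhi replicate 1 they were 0.30 and 0.28. Hdc-GFPhi replicate 1 also had the highest markers of granulocyte and monocyte progenitors, and the part of those cells in these values was not tested.

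Hoxa5, a member of the central group known from lung and skeletal patterning and expressed in blood progenitors, was at 11.2, 10.98 and 7.21 CPM in Hdc-GFPhi and 7.22, 5.80, 8.08 and 6.91 CPM in Hdc-GFPlo. Replicates 1 and 2 of Hdc-GFPhi were again the highest libraries and replicate 3 lay within the other fraction (log2 fold change 0.49, SE 0.28, edgeR adjusted p = 0.510; exact two-sided permutation p = 0.143). With Hdc-GFPhi replicate 1 and Hdc-GFPlo replicate 4 both left out, the log2 fold changes of Hoxa5, Hoxa7 and Hoxa9 were 0.36, 0.28 and 0.23.

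Hoxa10, the last counted gene of the cluster and a regulator of progenitor and megakaryocyte growth, went the other way by value. It was at 27.6, 27.2 and 34.7 CPM in Hdc-GFPhi and 36.7, 27.4, 37.1 and 42.8 CPM in Hdc-GFPlo. The fractions overlapped, because Hdc-GFPlo replicate 2 was at the level of the lowest Hdc-GFPhi libraries and Hdc-GFPhi replicate 3 was close to the Hdc-GFPlo libraries. The log2 fold change was -0.27 (SE 0.18, edgeR adjusted p = 0.586; exact two-sided permutation p = 0.171), and it was -0.40 without Hdc-GFPhi replicate 3 and -0.18 without Hdc-GFPlo replicate 4. The sign was negative under every scaling tried.

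The ratio of Hoxa9 to Hoxa10 counts within a library does not depend on the scaling between libraries. It was 1.57, 1.57 and 0.803 in Hdc-GFPhi replicates 1 to 3 and 0.908, 0.875, 0.866 and 0.629 in Hdc-GFPlo replicates 1 to 4. Hoxa9 counts exceeded Hoxa10 counts only in Hdc-GFPhi replicates 1 and 2, and Hdc-GFPhi replicate 3 lay below 3 of the Hdc-GFPlo libraries. This ratio was picked after the values were seen and was not tested.

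**Figure D3:**
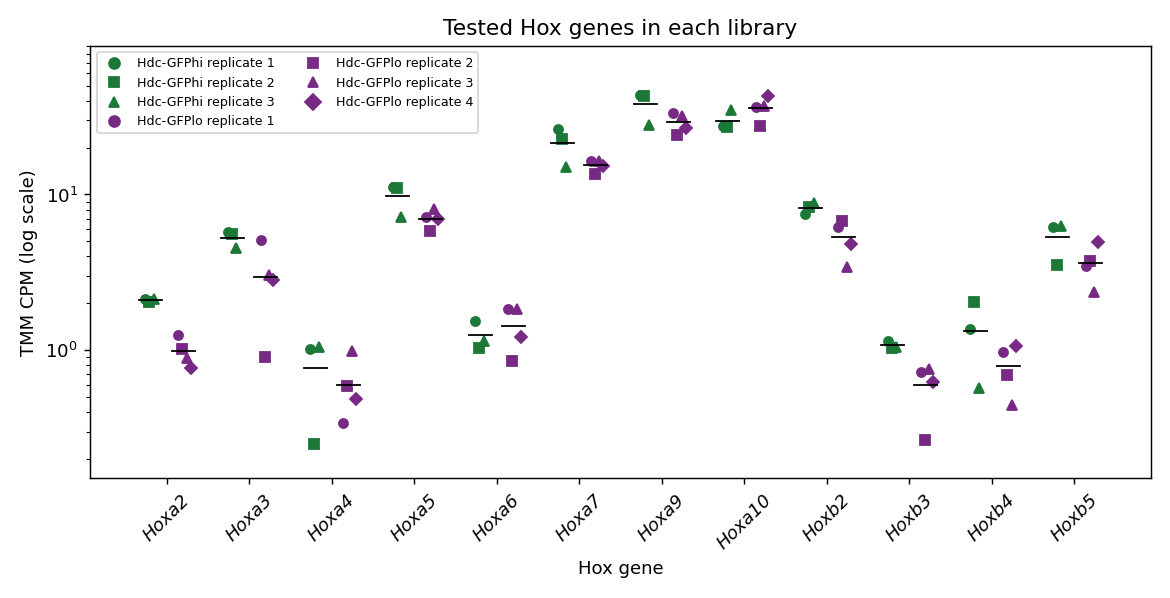
Level of the 12 tested Hox genes in each library, in TMM CPM on a log axis. Green symbols are Hdc-GFPhi, purple symbols Hdc-GFPlo, the symbol shape gives the replicate and short lines give group means. Hoxa2, Hoxb2 and Hoxb3 are the genes whose green points all lie above the purple ones.

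Among the low-numbered genes of both clusters were those whose fractions did not overlap. Hoxa2, Hoxa3, Hoxb3 and the other members below a mean of 5 CPM are described by library here after their values were seen. Hoxa2, known for patterning the hindbrain and the second pharyngeal arch, had 48, 49 and 45 counts in Hdc-GFPhi against 26, 19, 20 and 16 counts in Hdc-GFPlo, or 2.12, 2.04 and 2.13 CPM against 1.26, 1.01, 0.893 and 0.773 CPM. All Hdc-GFPhi libraries were above all Hdc-GFPlo libraries. The log2 fold change was 1.09 (SE 0.64, edgeR adjusted p = 0.519), the largest of the 12. An exact two-sided permutation test of its log2 CPM gave p = 0.0286, the smallest that the 35 divisions of 7 libraries allow, and it is 1 of 12 such tests, for which it was not adjusted.

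Hoxb2, a paralogue of Hoxa2 and the most abundant tested gene of its cluster, was at 7.48, 8.32 and 8.77 CPM in Hdc-GFPhi and 6.20, 6.76, 3.44 and 4.83 CPM in Hdc-GFPlo. The fractions did not overlap, although Hdc-GFPhi replicate 1 and Hdc-GFPlo replicate 2 were close. Group levels were 8.19 ± 0.657 CPM (SD, n = 3) and 5.31 ± 1.49 CPM (SD, n = 4), with a log2 fold change of 0.63 (SE 0.32, edgeR adjusted p = 0.467; exact two-sided permutation p = 0.0571).

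Hoxb3, which like Hoxb4 is expressed in HSCs, had 26, 25 and 22 counts in Hdc-GFPhi against 15, 5, 17 and 13 counts in Hdc-GFPlo. Its levels of 1.15, 1.04 and 1.04 CPM were all above the 0.727, 0.266, 0.759 and 0.628 CPM of the other fraction. The log2 fold change was 0.85 (SE 0.85, edgeR adjusted p = 0.726; exact two-sided permutation p = 0.0286). That permutation p is again the smallest possible and not adjusted for the 12 tests, for a gene described after its values were seen. The same permutation test gave p = 0.0857 for Hoxa3, 0.257 for Hoxb4, 0.171 for Hoxb5, 0.571 for Hoxa4 and 0.6 for Hoxa6. Hoxa3, the paralogue of Hoxb3, had 129, 135 and 96 counts in Hdc-GFPhi against 105, 17, 68 and 58 counts in Hdc-GFPlo. Its fractions overlapped by Hdc-GFPlo replicate 1 alone, and the log2 fold change was 0.84 (SE 0.55, edgeR adjusted p = 0.572), or 0.53 without Hdc-GFPlo replicate 2. Hoxa3 spans Hoxa4, Hoxa5 and Hoxa6 in the RefSeq annotation and Hoxb3 spans Hoxb4, so reads from shared stretches cannot be assigned with certainty.

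Hoxa2, Hoxb2 and Hoxb3 were thus 3 of 12 tested members with every Hdc-GFPhi library above every Hdc-GFPlo library, and 0 of 12 lay below. Over all genes tested 6.02% lay above and 5.87% below. This difference in shares was not tested. The neutrophil and monocyte markers given above also had higher values in Hdc-GFPhi (11 of 11 tested, 7 of them at an unadjusted edgeR p under 0.05, 0 called by edgeR and 2 by DESeq2), as did the megakaryocyte and platelet markers (7 of 7 tested, 3 at an unadjusted edgeR p under 0.05, 0 called by edgeR and 3 by DESeq2). The latter summed to 872 to 1189 CPM in Hdc-GFPhi and 583 to 912 CPM in Hdc-GFPlo, with Gp6 of the 8 listed at 0 throughout. Of the 10 HSC markers 7 had lower and 3 higher values in Hdc-GFPhi (2 lower and 1 higher at an unadjusted edgeR p under 0.05, 0 called by edgeR and 1 by DESeq2). The part of these lists in the Hox values was not tested.

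The remaining Hoxb genes were low. Hoxb4, whose overexpression expands HSCs, had 31, 49 and 12 counts in Hdc-GFPhi against 20, 13, 10 and 22 counts in Hdc-GFPlo, and the fractions overlapped, with both the highest and the second-lowest CPM in Hdc-GFPhi (log2 fold change 0.74, SE 0.84, edgeR adjusted p = 0.767; 0.29 without Hdc-GFPhi replicate 2). Hoxb5, known as a marker of long-term HSCs in mice, had 139, 85 and 132 counts in Hdc-GFPhi against 72, 70, 53 and 102 counts in Hdc-GFPlo. Hdc-GFPhi replicates 1 and 3 were above every Hdc-GFPlo library and replicate 2 was inside their range, with a log2 fold change of 0.55 (SE 0.42, edgeR adjusted p = 0.638). The summed level of the 10 Hoxb genes was 16.1, 15.5 and 17.6 CPM in Hdc-GFPhi and 11.4, 11.4, 7.10 and 12.2 CPM in Hdc-GFPlo, so that the sums did not overlap. Hoxb2, itself without overlap, held 7.48, 8.32 and 8.77 CPM of these sums in Hdc-GFPhi and 6.20, 6.76, 3.44 and 4.83 CPM in Hdc-GFPlo. The sums of the 11 Hoxa genes, 119, 113 and 93.7 CPM against 102, 74.1, 100.6 and 97.1 CPM, did overlap. These sums were not among the planned results and were not tested. With the first bright and the fourth dim library both left out, the median log2 fold change was 0.73 for Hoxb and 0.26 for Hoxa. The order of these medians turned without Hdc-GFPlo replicate 3 (0.50 for Hoxb and 0.53 for Hoxa). Without Hdc-GFPhi replicate 3 the medians were 0.56 for Hoxb and 0.61 for Hoxa, but there Hoxb had 5 tested genes instead of 4. In that fit the log2 fold changes of Hoxb2, Hoxb3, Hoxb4 and Hoxb5 were 0.56, 0.86, 1.09 and 0.41.

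**Figure D4:**
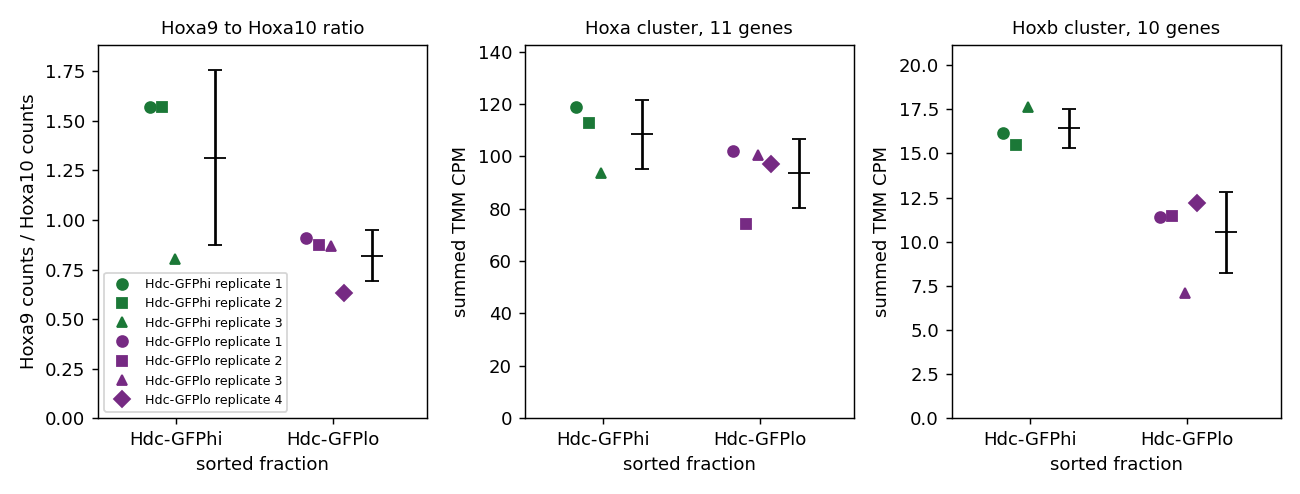
Ratio of Hoxa9 to Hoxa10 counts (left), summed level of the 11 Hoxa genes (middle) and summed level of the 10 Hoxb genes (right), in TMM CPM for the sums, by sorted fraction. Symbols are libraries, with the shape giving the replicate, and black marks give the mean and SD of each fraction. The Hoxb sums of the fractions do not overlap, the Hoxa sums and the ratios do.

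Hoxa4 and Hoxa6, central members of the cluster, were near the lower limit of the test. Hoxa4 had 23, 6 and 22 counts in Hdc-GFPhi against 7, 11, 22 and 10 counts in Hdc-GFPlo. Its log2 fold change was 0.36 (SE 0.97), with -0.13 under limma with quality weights, and it ran from 0.07 without Hdc-GFPhi replicate 3 to 0.78 without Hdc-GFPhi replicate 2. Hoxa6 had 35, 25 and 24 counts in Hdc-GFPhi against 38, 16, 41 and 25 counts in Hdc-GFPlo (log2 fold change -0.21, SE 0.70). That value ran from -0.40 without Hdc-GFPhi replicate 1 to -0.06 without Hdc-GFPlo replicate 1. Both genes overlapped between the fractions, and at this depth no difference was detectable.

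The 9 members with counts but no test had at most 37 counts in any library. Hoxb6 was counted 14 and 7 times in Hdc-GFPhi replicates 2 and 3, 2 and 15 times in Hdc-GFPlo replicates 3 and 4, and not in the other 3 libraries. Hoxb7 and Hoxb9 had 7 counts each, all in Hdc-GFPhi replicate 3. Hoxc6 was the most widely counted of the Hoxc genes, with at most 7 counts in any of 6 libraries. Hoxc10, a posterior gene known from limb and spinal cord, had 37 counts in Hdc-GFPlo replicate 2, 10 in replicate 4 and 1 in replicate 1 of that fraction and none in Hdc-GFPhi. Hoxc9 reached 12 counts and Hoxd8 16 counts in Hdc-GFPlo replicate 2, and Hoxd8 and Hoxd9 were counted in that library alone. Hdc-GFPlo replicate 2 held 74 of the 119 Hoxc and Hoxd counts of the whole series, and it was at the same time the library with the lowest value in 6 of the 12 tested members. The 7 other Hoxd genes and 5 Hoxc genes had no count anywhere.

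Other RNAs from inside the clusters gave little. Mira, a noncoding RNA from the Hoxa cluster known to act on Hoxa6 and Hoxa7 in mouse embryonic stem cells, averaged 5.57 ± 1.19 CPM (SD, n = 3) in the bright fraction and 5.53 ± 0.269 CPM (SD, n = 4) in the dim one, with a log2 fold change of 0.01 (SE 0.32, edgeR adjusted p = 0.993). The row 2700086A05Rik, the noncoding RNA Hoxaas3 that overlaps Hoxa3, Hoxa5 and Hoxa6 in RefSeq, was counted 6 to 33 times per library (log2 fold change 0.59, SE 0.90). Since the cDNA kit does not mark strand, reads from stretches that these genes share with this RNA cannot be told apart. The row Hoxa11as had 3 counts, all in Hdc-GFPlo replicate 3.

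Among the cofactors of the Hox proteins Meis1 had high counts in both fractions, and no cofactor passed the test. Of 9 such genes of the Meis, Pbx and Pknox families 7 were tested, 4 with higher and 3 with lower values (median log2 fold change 0.04), and edgeR called 0, with 1 at an unadjusted p under 0.05. Meis1, the cofactor that acts with Hoxa9 in stem cells and leukemia, averaged 604 ± 12.2 CPM (SD, n = 3) in the bright fraction and 624 ± 34.2 CPM (SD, n = 4) in the dim one, a log2 fold change of -0.05 (SE 0.07). Pbx4 was the gene at an unadjusted p under 0.05, at 17.9 ± 5.97 against 9.88 ± 1.30 CPM, with every Hdc-GFPhi library above every Hdc-GFPlo library (log2 fold change 0.86 with SE 0.26, edgeR adjusted p = 0.290, DESeq2 adjusted p = 0.0930).

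The machinery that maintains Hox transcription was read through a list of its genes. All 17 listed genes of the MLL and menin complex, the super elongation complex and Dot1l were tested, 8 with higher and 9 with lower values (median log2 fold change -0.00276), and edgeR called 0 of them, with 1 higher and 1 lower at an unadjusted p under 0.05. Those were Mll1, the row of Kmt2a, at 123 ± 29.2 against 82.8 ± 10.8 CPM (0.56, SE 0.17, edgeR adjusted p = 0.283), and Psip1, the gene for the chromatin tether LEDGF, at 145 ± 15.6 against 192 ± 19.7 CPM (-0.40, SE 0.11, edgeR adjusted p = 0.254). DESeq2 called Psip1 alone among the 17 (adjusted p = 0.0318). Ash2l, a core subunit of the methyltransferase complexes, followed at 175 ± 10.3 against 198 ± 13.8 CPM (-0.18, SE 0.09). The 3 Cdx genes, homeobox regulators of Hox genes in the embryo, had no count in any library.

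Genes on either side of the clusters and homeobox genes outside them gave a comparison of place and of family. Of 10 flanking genes listed 9 had a row and 6 were tested, 4 with higher and 2 with lower values (median log2 fold change 0.10), and 0 were called or at an unadjusted p under 0.05. Skap2, which borders the Hoxa cluster, was at 240 ± 4.71 against 266 ± 16.0 CPM, a log2 fold change of -0.15 (SE 0.08), while Evx1, at the other border, had no count. Of 23 homeobox genes outside the clusters 19 were tested, 9 with higher and 10 with lower values (median log2 fold change -0.03), and edgeR called 0, with 0 higher and 2 lower at an unadjusted p under 0.05. Those 2 were Adnp, a chromatin regulator (-0.33, SE 0.12), and Zhx1, a zinc finger homeobox repressor (-0.35, SE 0.14). The difference between these lists and the Hox genes was not tested.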

How the data were processed

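RNA of sorted bone marrow HSCs was measured in 7 libraries. Each library started from 500 cells; per the labels' protocols, PicoPure was used for RNA, SMARTer Ultra Low Input for cDNA and Nextera XT for the library. Per the submitters' processing notes, bcl2fastq 1.8.4, TopHat2 2.0.4, Bowtie2 and HTSeq 0.6.1 were used with the build mm9. Their annotation and strand setting are not known here. The authors deposited raw counts for each gene symbol, 1 column per library, matched to samples by the library code in their descriptions. Sequences and lengths came from GENCODE M21 and RefSeq (GRCm38), so they describe genes and not the counted reads.

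The members and gene lists were chosen with earlier results of these data known. In R 4.3.3, edgeR 4.0.16 was run with filterByExpr (minimum count 10, 12917 of 23284 genes kept), TMM scaling and a robust quasi-likelihood F test between the fractions, with no other term and Benjamini-Hochberg adjustment at 0.05. Each standard error is the size of the log2 fold change over the root of its F. DESeq2 1.42.0 and limma 3.58.1 were alternatives, with other scalings and filters, a replicate block and libraries left out. Exact permutation tests of log2(CPM + 2) used all 35 divisions of the libraries. Steps were tested on simulated data. Members with a mean of at least 5 CPM, Hdc, Meis1 and the leading genes of each list were named by rule, and all other members after their values were seen. Some genes that the rule covers are counted in the totals and not reported here by name. The smallest chi-square per degree of freedom between libraries was 25.8, so none was a copy of another. The common biological coefficient of variation was 35.3%.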

Additional observations from a re-analysis of the deposited data

How the results depend on the processing

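Under every alternative run, edgeR and limma called 0 genes in all and 0 Hox genes, while DESeq2 called 344 genes (69 higher, 275 lower in Hdc-GFPhi) and 0 Hox genes. In the fits that left out 1 library, genes at an unadjusted edgeR p under 0.05 numbered 997 (without Hdc-GFPhi replicate 1) to 1884 (without Hdc-GFPhi replicate 3), against 1579 with all. Hox genes at that p numbered 2 without Hdc-GFPhi replicate 3 (Hoxa7 and Hoxa9, both higher in Hdc-GFPhi). Without Hdc-GFPlo replicate 2 there was 1, Hoxa10, which was lower in Hdc-GFPhi. Library totals gave 1 (Hoxa7, higher), and the unadjusted p of limma gave 1 (Hoxb2, higher). With no filter there was 1, which was not among the 12 genes tested in the main fit. The median log2 fold change of the tested Hox genes, 0.52 over 12 genes, ran from 0.40 without Hdc-GFPhi replicate 1 to 0.56 without Hdc-GFPhi replicate 3. In each of these 2 fits 14 Hox genes passed the filter, so the medians are not over the same genes. Under the other settings the median of the tested Hox genes lay between 0.40 and 0.56. Without Hdc-GFPhi replicate 2 it was 0.43 (13 Hox genes tested), and without Hdc-GFPlo replicate 2 it was 0.47. It was 0.51 to 0.55 under other scalings, 0.48 without a filter (21 Hox genes tested) and 0.48 with the first bright and the fourth dim library both left out. Of 198 values of single Hox genes under distinct alternatives 197 kept their sign, and Hoxa4 turned to -0.13 under limma with quality weights; the cause was not tested. Of the 189 with an adjusted p 0 passed the threshold, and 9 from DESeq2 had none.

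The labels do not say whether replicate numbers pair the libraries. Deviations of same-numbered libraries from their group means correlated at -0.04, -0.03 and -0.14 across genes. Those of differently numbered libraries correlated at -0.08 to 0.11. With so few libraries behind each mean, these values cannot decide whether the libraries were paired. With the replicate block, for which the unpaired dim library was dropped, 0 Hox genes and 0 genes in all were called and the median was 0.55, against 0.53 for the same libraries with no block. Depth limits the 9 untested members, and for Hoxa4, Hoxa6, Hoxb3 and Hoxb4 the standard error was at least as large as the fold change.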
